A study of Mus musculus with 21 samples.

Results

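Methylated DNA capture was examined at 10 genes that control the cell cycle and apoptosis in mouse synovial fibroblasts, the connective tissue cells that line the joint. The genes were Cdk1, Cdk6, Ccnd1, E2f3, Trp53, Trp73, Bax, Diablo, Casp12 and Tnfaip8. Every row of the 4 deposited tables that named 1 of them as its gene was used, which gave 29 of the 49307 listed regions. Tg197 mice, a model of arthritis driven by a transgene for human TNF, were compared with wild-type (WT) mice, and WT cells exposed to TNF with untreated WT cells, all of the background CBA x C57BL/6J. The 21 samples formed 7 groups of 3, namely Tg197 at 3, 8 and 11 weeks of age, WT cells of 8-week-old mice exposed to TNF, and untreated WT at 3, 8 and 11 weeks. All groups were cultured cells of passages 4-5, so each measures cells grown outside the joint. The sources used here give neither the dose nor the duration of TNF exposure. Each table set 3 Tg197 or TNF-treated libraries against 3 WT libraries, and the Tg197 and TNF tables at 8 weeks used the same WT group.

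Cell division is driven by cyclins and cyclin-dependent kinases, which release E2F transcription factors from the retinoblastoma protein so that genes of DNA replication can be transcribed. The p53 family holds the cycle or starts cell death after damage, and mitochondrial proteins and caspases carry that death out. Synovial fibroblasts of arthritic joints are known for expanding beyond their normal number and for resisting apoptosis. In methylation capture, DNA fragments carrying methylated CG pairs are pulled down by a protein that binds methylated CpG, then sequenced, and the reads of a region therefore follow both its methylation and its number of CG pairs. It does not measure expression, so the cell type could not be checked against marker genes.

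The authors' tables class 27 of the 29 regions as gene body and 2 as promoter within 3 kb of a transcription start, 1 upstream of Diablo and 1 inside Bax, and 0 lay within 1 kb of a start. The start itself is shown for these 2 genes, because their regions came nearest to it, and for Casp12, because its promoter holds few CG pairs and its gene body lost capture at 2 ages. RefSeq promoter sequences (build GRCm38.p6, 300 bases from upstream to downstream of the start) were matched by symbol for 8 of the 10 genes and not for Ccnd1 and Tnfaip8. The motif searched was CG, which reads the same on both strands, and each CG is in capitals. The Diablo window is chr5:123524115-123524414 on the minus strand, the Bax window chr7:45466849-45467148 on the minus strand and the Casp12 window chr9:5345226-5345525 on the plus strand.
Diablo promoter: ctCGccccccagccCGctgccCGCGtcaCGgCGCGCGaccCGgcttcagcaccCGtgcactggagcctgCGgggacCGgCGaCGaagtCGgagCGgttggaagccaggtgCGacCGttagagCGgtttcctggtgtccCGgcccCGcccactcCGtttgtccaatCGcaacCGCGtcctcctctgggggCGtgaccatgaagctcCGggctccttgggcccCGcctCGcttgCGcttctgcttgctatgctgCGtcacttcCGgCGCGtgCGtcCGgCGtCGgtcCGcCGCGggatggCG
Bax promoter: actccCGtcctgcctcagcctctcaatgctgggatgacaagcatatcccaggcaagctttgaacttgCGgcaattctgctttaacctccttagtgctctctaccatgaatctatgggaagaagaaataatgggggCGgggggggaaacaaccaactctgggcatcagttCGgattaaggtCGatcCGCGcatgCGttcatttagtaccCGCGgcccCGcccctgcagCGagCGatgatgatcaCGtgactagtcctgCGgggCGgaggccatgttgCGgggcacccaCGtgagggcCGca
Casp12 promoter: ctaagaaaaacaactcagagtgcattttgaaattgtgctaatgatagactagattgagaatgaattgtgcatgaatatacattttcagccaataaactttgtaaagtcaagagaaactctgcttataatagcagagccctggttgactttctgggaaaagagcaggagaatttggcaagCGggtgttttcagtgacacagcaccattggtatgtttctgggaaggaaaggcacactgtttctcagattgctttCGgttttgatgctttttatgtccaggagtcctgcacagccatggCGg
The Diablo window held 42 CG, more than 97.0% of the 32851 mouse promoter windows of this length, the Bax window held 19 and the Casp12 window 3. Of all windows 94.6% held at least 1 CG, with a median of 7. The Cdk6 window held 27, the Cdk1 window 24 and the Trp53 window 10, while E2f3 (16 and 37) and Trp73 (6 and 39) had 2 windows each. No letters of the listed regions are shown, since their coordinates are in build mm9, and they were not placed on these windows.

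The tables list only regions that the authors had found different between 2 groups, so every test here is a retest of selected regions, and nothing can be said of regions that were not listed. Each region had 1 normalized read value per library, which is the number of reads divided by a size factor, and libraries are numbered 1 to 3 by the place of their value within a group's entry. TNF-treated libraries 1 and 2 held identical values at all 16898 regions of their table, so they were treated as a single sample (n = 2 against n = 3), except where stated. The listed regions held 2230884 to 2875556 recovered reads per library at 3 weeks, 695108 to 1143699 at 8 weeks and 385155 to 544797 at 11 weeks. Libraries of the TNF comparison held 1285303 to 1858683. The labels do not say whether replicates were separate cultures or mice, so the spread behind the limma p-values is that of the deposited libraries and could be technical. Libraries of 1 group differed on the sex chromosomes: the 981 listed X regions at 8 weeks averaged 254, 107 and 195 normalized reads in the Tg197 libraries and 117, 113 and 119 in the WT libraries. The 29 listed Y regions at 3 weeks were all lower in Tg197 and averaged 77.7, 69.4 and 79.1 there against 165, 123 and 84.5 in WT. At 11 weeks the 199 listed X regions averaged 80.9, 75.4 and 73.5 in Tg197 against 167, 77.9 and 87.8 in WT, where library 1 stood apart. All member genes are autosomal, and the part of this difference in their results was not tested.

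Called gained or lost were regions with a limma adjusted p under 0.05 (Benjamini-Hochberg over all regions of a table), with fold changes on the log2(normalized reads + 1) scale. In all, 20 member regions were lost, 7 were gained and 2 did not pass. Over all listed regions, 44.7% were lost at 3 weeks, 36.6% at 8 weeks, 28.2% at 11 weeks and 64.1% after TNF. The gained shares were 40.3%, 17.4%, 49.7% and 29.8% in that order. Cdk1 was the only one of the 10 genes listed in all 4 tables, and all 4 of its regions were lost. Cdk6 held 9 of the 29 regions, 4 gained, 3 lost and both that did not pass. The 2 regions of Trp53, the 3 of Bax and the 2 of Casp12 were lost, as were the single regions of Ccnd1 and Trp73, while the single Diablo region was gained. E2f3 had 3 lost and 1 gained region, and Tnfaip8 had 1 of each. None passed when limma p-values were adjusted over the number of windows that the deposited p and q-values imply, at least 749000 per table, although 10, 5, 5 and 7 member regions had an unadjusted p under 0.05 at 3, 8 and 11 weeks and after TNF, and limma voom called the same numbers over the listed regions. Of all listed regions, 24 passed the adjustment over windows at 3 weeks and 0 at 8 weeks, at 11 weeks and after TNF.

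**Figure D1:**
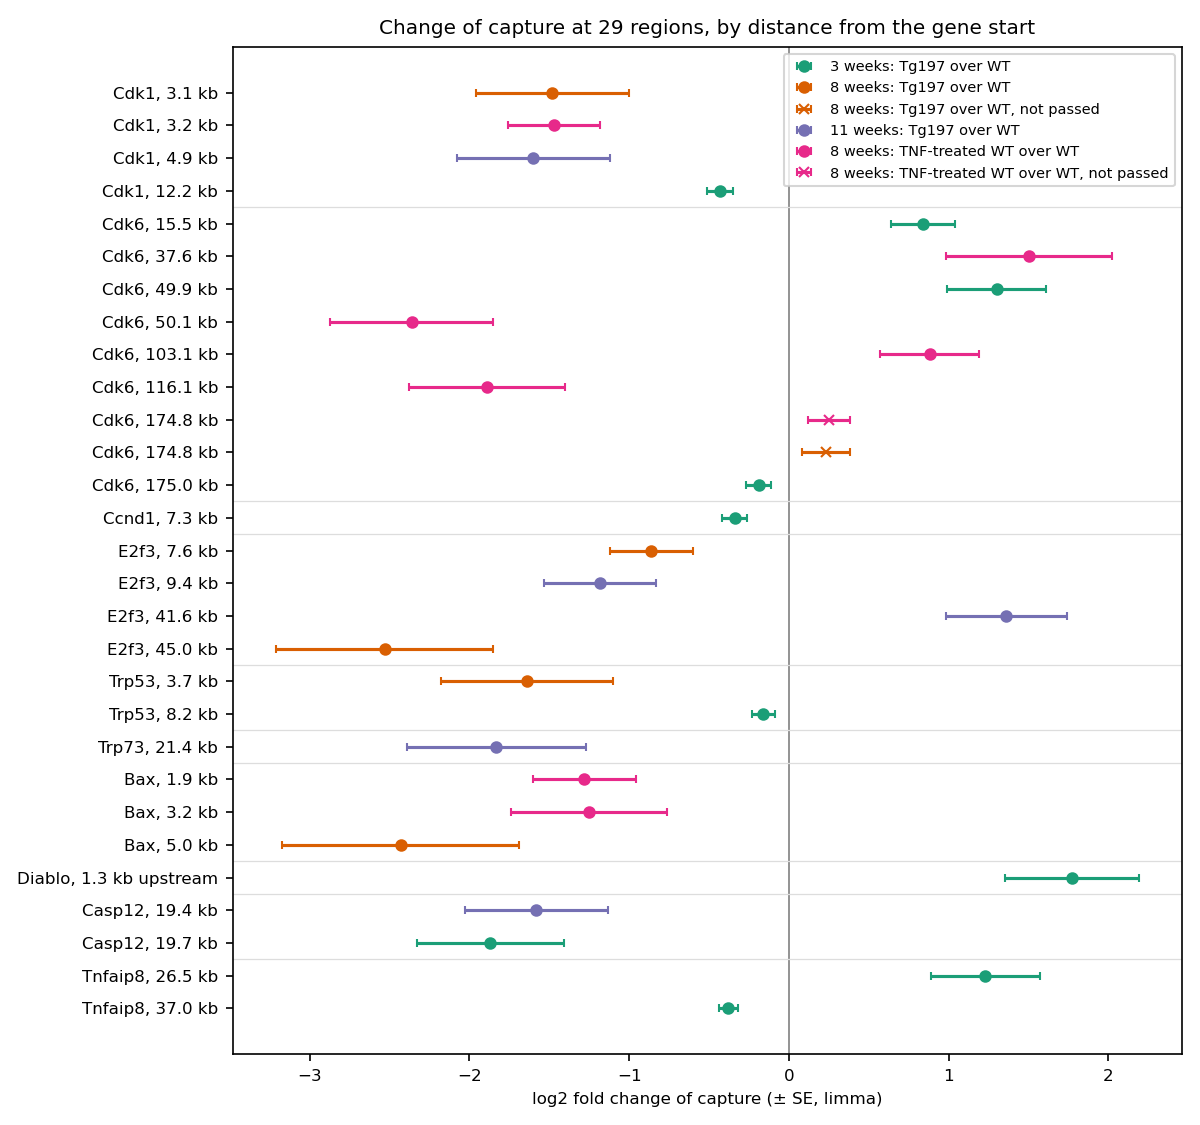
Log2 fold change of capture (x axis, Tg197 or TNF-treated WT over WT, limma on log2(normalized reads + 1), bars ± SE) at the 29 member regions, ordered by gene and by the distance of the region's centre from the gene start, with colours for the 4 comparisons and crosses for the 2 regions that did not pass. Every Cdk1, Trp53, Trp73, Bax and Casp12 region lies left of 0, and Cdk6 regions lie on both sides.

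At 3 weeks, the early stage of disease, 10 regions of 7 member genes were listed and all passed, 4 gained and 6 lost. Among all 13125 regions of that table, the share that passed was 85.0%, with 40.3% gained and 44.7% lost, so the members' share of gains was near that of the table. The gained gene-body regions, at Cdk6 and Tnfaip8, had low values, between 16.9 and 40.7 normalized reads on average over both groups. The gained region upstream of Diablo had means of 20.4 in Tg197 and 6.07 in WT. The lost regions, at Cdk1, Cdk6, Ccnd1, Trp53, Casp12 and Tnfaip8, averaged between 157 and 505. Low values at gained regions and high values at lost ones were a property of the whole table, where gene-body regions that gained had a median of 28.5 and those that lost a median of 223. Groups did not overlap at 8 of the 10 regions, against 86.1% of the table.

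At 8 weeks, the established stage, 6 regions of 5 genes were listed, with 5 lost, 0 gained and 1 short of the threshold. Among the 11975 regions listed at this age, 54.0% passed, with 36.6% lost and 17.4% gained. The median log2 fold change was -1.56 over the 6 member regions and -0.22 over all regions. All regions include 981 on chromosome X, 927 of them higher in Tg197, while the members are autosomal. Groups did not overlap at 5 of the 6 regions, against 69.6% of the table. The calls were close to the threshold, with adjusted p between 0.0428 and 0.0433. None of the 5 passed without Tg197 library 1, without Tg197 library 3, without WT library 1 or without WT library 2, where the smallest adjusted p of a member region was 0.0726, 0.0891, 0.131 and 0.134. Without Tg197 library 2 all but Trp53 passed (adjusted p = 0.0551 there), and without WT library 3 all but Cdk1 (0.0568) and Bax (0.0579) passed. With a pseudocount of 0.1 in place of 1 none of them passed, with adjusted p between 0.0519 and 0.0851. Of all 11975 regions, 6470 passed in the main fit, 8849 without Tg197 library 2 and 5061 without WT library 3. With the pseudocount of 0.1, or without Tg197 library 1, Tg197 library 3, WT library 1 or WT library 2, 0 of all regions passed.

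At 11 weeks, the late stage, 5 regions of 4 genes were listed and all passed, 4 lost and 1 gained, with groups that did not overlap at any of the 5. Among the 7309 regions listed at this age, 77.9% passed, with 28.2% lost and 49.7% gained, and 83.7% had groups that did not overlap. The median log2 fold change was -1.58 over the 5 member regions and 0.76 over all regions. The limma adjusted p was 0.0219 at each of the 5 and stood just above the threshold of 0.05 without Tg197 library 1, Tg197 library 3 or WT library 2, between 0.0531 and 0.0555. Of all 7309 regions, 5694 passed in the main fit, 10 without Tg197 library 1 and 0 without Tg197 library 3 or WT library 2.

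The comparison of TNF-treated with untreated WT cells addressed what follows exposure to the cytokine itself. For it, 8 regions of 3 genes were listed, of which 5 were lost (at Cdk1, Cdk6 and Bax), 2 gained (both at Cdk6) and 1 did not pass. Among the 16898 regions listed after TNF, 93.8% passed, with 64.1% lost and 29.8% gained. Groups did not overlap at any of the 8, against 95.8% of the table. The median log2 fold change was -1.26 over the 8 regions and -1.08 over all regions. When each library was rescaled by its median ratio over the listed regions, the median of all regions moved to -0.22 and that of the members to -0.41, and 1 member region was lost and 3 were gained. Of the passing regions of the whole table, 31.7% were gained as deposited and 83.2% after rescaling, so the direction that prevailed among passing regions depended on the scaling. The ratios came from listed regions only, which were selected for a difference, and 11191 of the 16898 were lower after TNF. Such rescaling would also remove a true net loss, so calls kept or lost under it cannot tell which scaling is right.

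**Figure D2:**
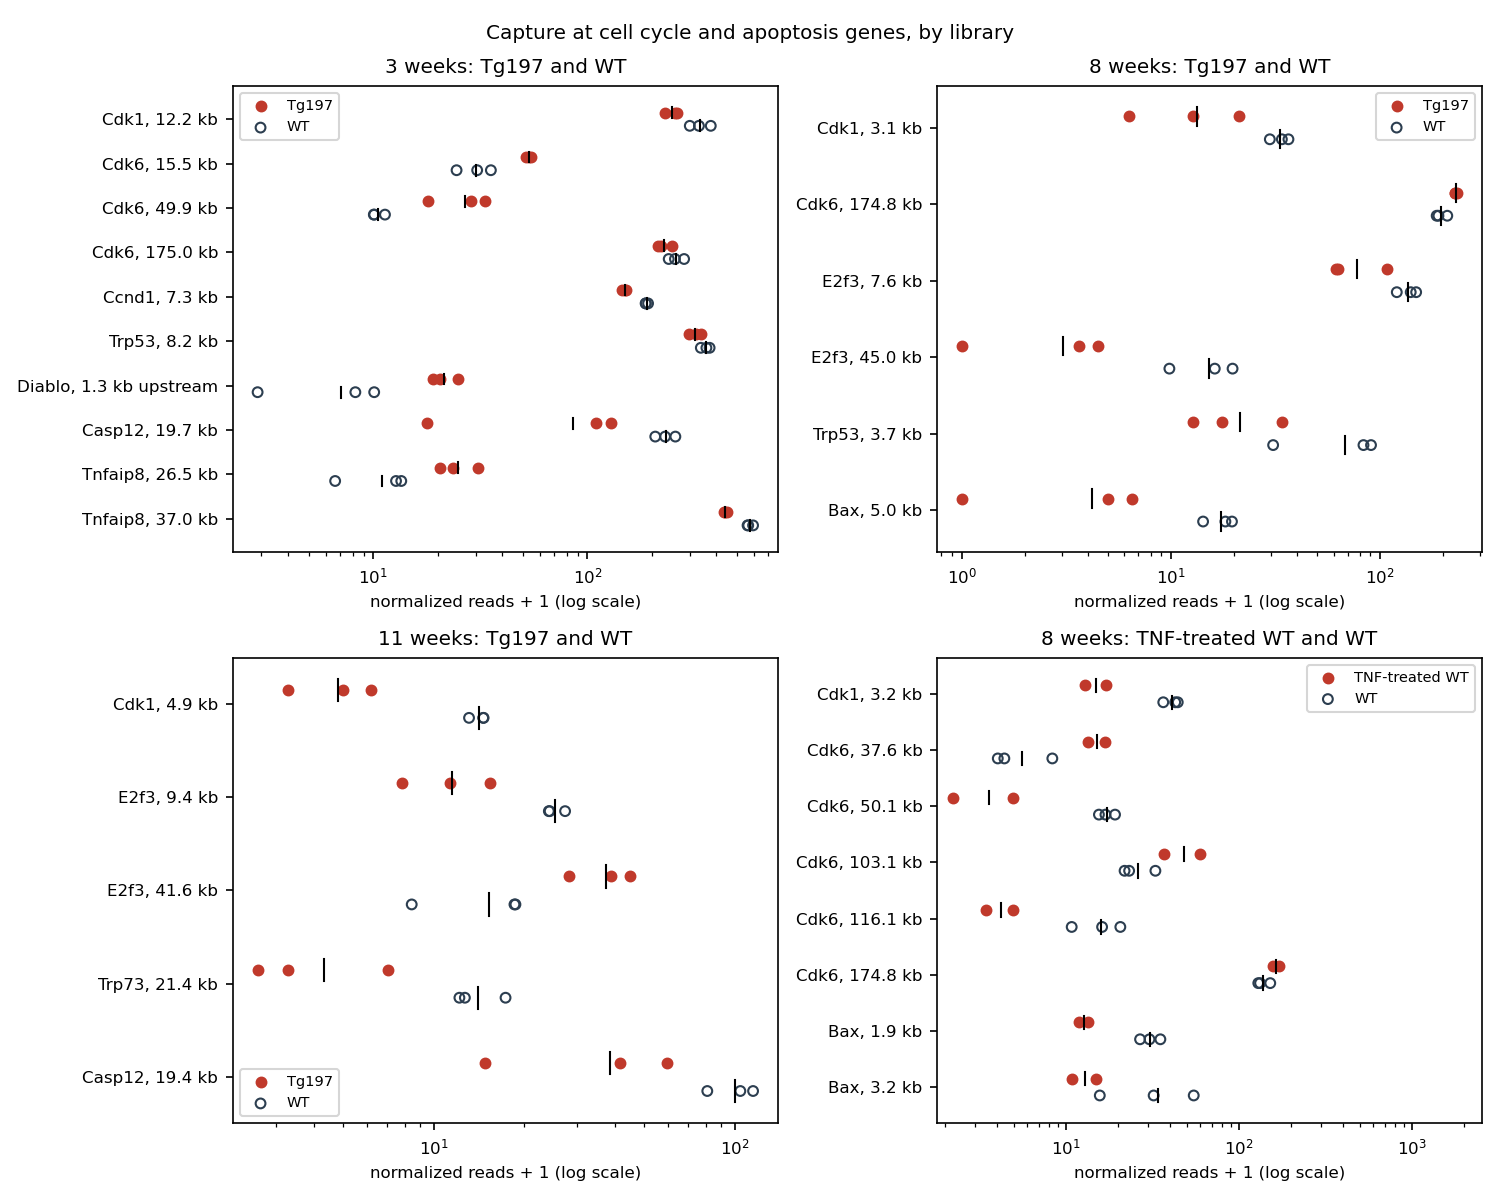
Normalized reads + 1 (x axis, log scale) at each member region in each library, with 1 panel per comparison, filled points for Tg197 or TNF-treated WT libraries, open points for WT libraries and a vertical bar at each group mean. TNF-treated libraries 1 and 2 are drawn as 1 point, and Tg197 library 3 stands far left of the other Tg197 libraries at Casp12 at 3 weeks, with 16.8 normalized reads.

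Cdk1 encodes the kinase that drives entry into mitosis, and each of its listed regions lay inside the gene and was lower in Tg197 or TNF-treated cells. At 3 weeks a region 12183 bp from the start (chromosome 10, 68803201 to 68803750) had 256, 228 and 260 normalized reads in Tg197 libraries 1 to 3, against 376, 300 and 331 in WT. Every Tg197 library was below every WT library, and the log2 fold change was -0.43 with an SE of 0.08 (limma, adjusted p = 0.00166). At 8 weeks a region 3133 bp from the start (68812251 to 68812800) had 5.30, 20.1 and 11.8 in Tg197, against 35.5, 33.0 and 28.7 in WT. The groups did not overlap, Tg197 library 1 was the lowest, and the log2 fold change was -1.48 with an SE of 0.48 (limma, adjusted p = 0.0433). It was -1.27 after rescaling and no longer passed there (adjusted p = 0.052).

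A TNF-table region that shared 550 bp with it (68812001 to 68812900) had 11.9 in TNF-treated libraries 1 and 2 and 16.1 in library 3, against 42.0, 43.4 and 35.6 in WT. Both TNF-treated samples were below every WT library, with a log2 fold change of -1.47 and an SE of 0.29 (limma, adjusted p = 0.0109). After rescaling it was -0.60 and did not pass (adjusted p = 0.105). Since both 8-week comparisons used the same WT group, the pair of Cdk1 losses is not independent. At 11 weeks the listed region (68810501 to 68811000) lay 4908 bp from the start, with a gap of 1250 bp to the 8-week one. It had 3.99, 2.29 and 5.17 in Tg197, against 13.6, 12.1 and 13.6 in WT. The groups did not overlap, although the values rest on 5, 2 and 6 recovered reads in Tg197 against 10, 13 and 14 in WT, and the log2 fold change was -1.60 with an SE of 0.48 (limma, adjusted p = 0.0219).

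Cdk6 encodes a kinase that pairs with D-type cyclins to phosphorylate the retinoblastoma protein early in the cycle. It is the longest of the 10 genes (178 kb), and its 9 regions went both ways. At 3 weeks a region 15464 bp from the start (chromosome 5, 3359451 to 3360100) had 50.8, 53.7 and 52.4 normalized reads in Tg197, against 23.5, 34.4 and 29.5 in WT. All Tg197 libraries were above all WT libraries, and capture rose by a log2 fold change of 0.84 with an SE of 0.20 (limma, adjusted p = 0.0026). Deeper in, a region at 49889 bp (3393951 to 3394450) had 32.4, 17.0 and 27.7 in Tg197, against 10.3, 9.05 and 9.09 in WT, and rose by 1.30 with an SE of 0.31 (limma, adjusted p = 0.00247). The groups again did not overlap.

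The same place was listed after TNF with the opposite sign. A region sharing 350 bp with it (3394101 to 3394650) had 3.98 in TNF-treated libraries 1 and 2 and 1.24 in library 3, against 14.6, 18.3 and 16.0 in WT. These are 4 recovered reads in each of TNF-treated libraries 1 and 2 and 1 in library 3, against 17, 24 and 13 in WT. Both treated samples were below every WT library. The log2 fold change was -2.36 with an SE of 0.51 (limma, adjusted p = 0.0109), and it kept the call after rescaling (-1.66, limma adjusted p = 0.0192). The ages differ (3 and 8 weeks), as do the libraries, and the difference between the 2 changes was not tested.

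After TNF 3 other regions inside Cdk6 passed. At 37614 bp from the start (3381601 to 3382250) the value was 15.9 in TNF-treated libraries 1 and 2 and 12.4 in library 3, against 3.42, 3.05 and 7.37 in WT. Capture rose there by 1.50 on the log2 scale with an SE of 0.52 (limma, adjusted p = 0.0189), although the call was lost without TNF-treated libraries 1 and 2 (adjusted p = 0.0826), without WT library 1 (0.0535) and without WT library 2 (0.066). Without libraries 1 and 2, or without library 3, the TNF-treated group holds 1 sample, which is then assumed to vary like the WT group. After rescaling the value was 2.32 (adjusted p = 0.00278). At 103089 bp (3447151 to 3447650) it was 58.7 in TNF-treated libraries 1 and 2 and 36.0 in library 3, against 22.3, 32.0 and 20.9 in WT. TNF-treated libraries 1 and 2 stood well above library 3 here. The log2 fold change was 0.88 with an SE of 0.31 (limma, adjusted p = 0.0208), and 0.53 without libraries 1 and 2 (adjusted p = 0.195). After rescaling it was 1.76 (adjusted p = 0.00071). At 116139 bp (3460101 to 3460800) it was 3.98 in TNF-treated libraries 1 and 2 and 2.48 in library 3, against 19.7, 15.2 and 9.83 in WT. Capture fell there by 1.89 on the log2 scale with an SE of 0.49 (limma, adjusted p = 0.0109), and after rescaling the value was -1.13 (adjusted p = 0.0657). Groups did not overlap at any of these 3.

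The end of Cdk6 was listed in 3 tables. A region 175039 bp from the start (3519101 to 3519600) had 246, 221 and 212 normalized reads in Tg197 at 3 weeks, against 282, 255 and 239 in WT. The groups overlapped, and the small decrease passed with a log2 fold change of -0.19 and an SE of 0.08 (limma, adjusted p = 0.0382). It did not pass without Tg197 library 2 (adjusted p = 0.103), Tg197 library 3 (0.149), WT library 1 (0.148) or WT library 2 (0.0563), or after rescaling (-0.14, adjusted p = 0.0958). At 8 weeks a region sharing 350 bp with it (3518851 to 3519450) had 227, 233 and 227 in Tg197, against 189, 186 and 209 in WT, a log2 fold change of 0.23 with an SE of 0.15 that did not pass (limma, adjusted p = 0.186). The TNF table listed 3518851 to 3519350 with 157 in TNF-treated libraries 1 and 2 and 170 in library 3, against 132, 129 and 151 in WT, a log2 fold change of 0.25 with an SE of 0.13 that did not pass (limma, adjusted p = 0.089). It passed without WT library 3 (0.32, adjusted p = 0.041), and after rescaling it was 1.16 (adjusted p = 0.00201). Counting all 3 TNF-treated libraries, which enters the identical pair as 2 samples, also gave a pass (adjusted p = 0.0384). In both 8-week comparisons each treated or Tg197 library was above every WT library. Both used the same WT group, so the pair is not independent.

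**Figure D3:**
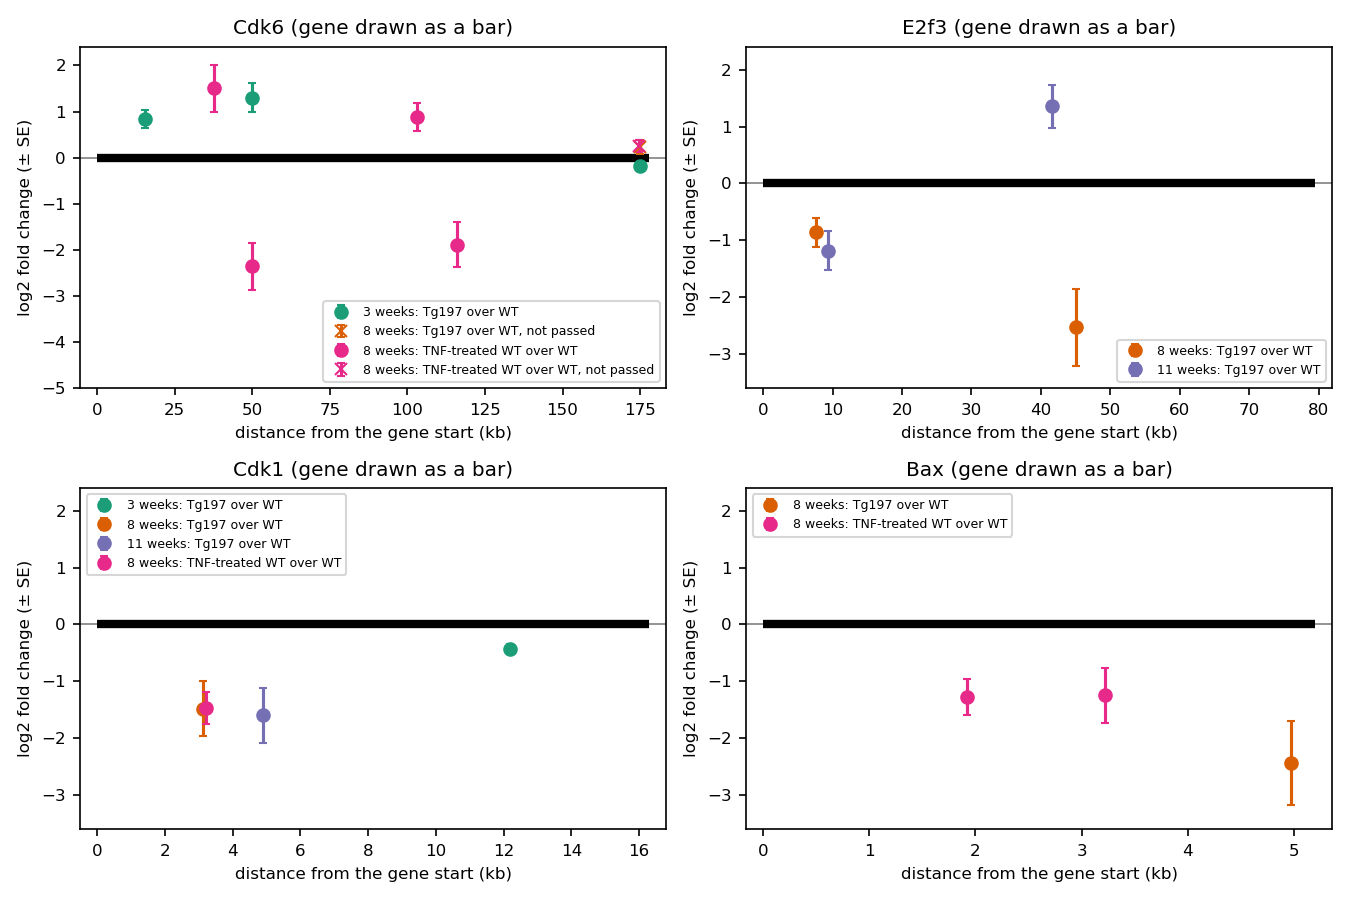
Log2 fold change of capture (y axis, ± SE, limma) against the distance of the region's centre from the gene start in kb (x axis) at Cdk6, E2f3, Cdk1 and Bax, with the gene drawn as a black bar and colours for the comparisons. At 50 kb into Cdk6 the 3-week region lies at 1.30 and the TNF region at -2.36, and the regions at Cdk1 and Bax all lie below 0.

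Ccnd1 encodes cyclin D1, the partner of Cdk6 that growth signals induce. Its single region (chromosome 7, 152118251 to 152118900, 7253 bp from the start) was listed at 3 weeks. It had 149, 151 and 144 normalized reads in Tg197, against 186, 186 and 191 in WT. The groups were tight and did not overlap, with means of 148 ± 3.33 in Tg197 and 188 ± 2.72 in WT (SD, n = 3 each) and a log2 fold change of -0.34 with an SE of 0.08 (limma, adjusted p = 0.00233).

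E2f3 encodes a transcription factor that turns on genes of DNA replication once the retinoblastoma protein lets it go. It was listed at 8 and 11 weeks, with 1 region near 8 to 9 kb and 1 near 42 to 45 kb from the start at each age. At 8 weeks the nearer region (chromosome 13, 30069901 to 30070800, 7580 bp) had 61.0, 107 and 61.8 normalized reads in Tg197, against 148, 139 and 119 in WT. Tg197 and WT did not overlap, and the log2 fold change was -0.86 with an SE of 0.26 (limma, adjusted p = 0.0428), or -0.64 after rescaling, where it did not pass (adjusted p = 0.0785). At 11 weeks a region 1100 bp away (30068301 to 30068800, 9380 bp) had 14.4, 6.87 and 10.3 in Tg197, against 23.1, 23.3 and 26.3 in WT, again with no overlap and a log2 fold change of -1.18 with an SE of 0.35 (limma, adjusted p = 0.0219). Capture was thus lower in Tg197 at both ages near this place, in separate libraries.

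The deeper E2f3 regions changed in opposite directions. At 8 weeks the region at 45030 bp (30032651 to 30033150) had 2.65, 3.46 and 0.00 in Tg197, against 15.2, 18.7 and 8.84 in WT. These are 2, 5 and 0 recovered reads in Tg197 against 18, 25 and 8 in WT. All Tg197 libraries were below all WT libraries, and the log2 fold change was -2.53 with an SE of 0.68 (limma, adjusted p = 0.0428). It was -3.79 with a pseudocount of 0.1 and -1.45 with a pseudocount of 5. At 11 weeks a region 2750 bp away (30035901 to 30036700) had 27.1, 37.8 and 44.0 in Tg197, against 17.7, 7.45 and 17.5 in WT, with a log2 fold change of 1.36 and an SE of 0.38 (limma, adjusted p = 0.0219). It was the 1 gained member region at that age, and its groups did not overlap. The 2 regions do not share bases, and the difference between the ages was not tested.

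Trp53 encodes p53, which halts the cycle or starts apoptosis after damage. At 3 weeks a region 8240 bp from its start (chromosome 11, 69401851 to 69402350) had 338, 320 and 298 normalized reads in Tg197, against 371, 358 and 337 in WT. The groups overlapped by the highest Tg197 and the lowest WT library, and the log2 fold change was -0.16 with an SE of 0.07 (limma, adjusted p = 0.0434). It did not pass without Tg197 library 2 (adjusted p = 0.0862), Tg197 library 3 (0.197), WT library 1 (0.104) or WT library 2 (0.0816), or after rescaling (-0.10, adjusted p = 0.129). At 8 weeks the listed region (69397251 to 69397850) lay 3690 bp from the start, with a gap of 4000 bp to the 3-week one. It had 33.1, 16.6 and 11.8 in Tg197, against 89.6, 82.4 and 29.8 in WT. WT library 3 stood below the other WT libraries and below Tg197 library 1, so the groups overlapped. The log2 fold change was -1.64 with an SE of 0.54 (limma, adjusted p = 0.0433).

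Trp73 encodes p73, a p53 relative that can start apoptosis by itself. Its single region, 21365 bp into the gene (chromosome 4, 153492701 to 153493200), was listed at 11 weeks with 1.60, 2.29 and 6.03 normalized reads in Tg197, against 16.3, 11.2 and 11.7 in WT. These are 2, 2 and 7 recovered reads in Tg197 against 12, 12 and 12 in WT. Every Tg197 library was below every WT library, and the log2 fold change was -1.83 with an SE of 0.56 (limma, adjusted p = 0.0219).

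Bax encodes the protein that permeabilizes the outer mitochondrial membrane in apoptosis. All 3 of its regions lay inside the gene, and capture fell at each. At 8 weeks a region 4966 bp from the start, close to the gene's end (chromosome 7, 52717051 to 52717550), had 3.98, 5.54 and 0.00 normalized reads in Tg197, against 18.6, 17.2 and 13.3 in WT. The groups did not overlap, on 3, 8 and 0 recovered reads in Tg197 against 22, 23 and 12 in WT, and the log2 fold change was -2.43 with an SE of 0.74 (limma, adjusted p = 0.0428). Without Tg197 library 3, the one at 0, it was -1.59 (adjusted p = 0.0891).

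After TNF the Bax region nearest the start, at 1916 bp (52720101 to 52720600), had 10.9 in TNF-treated libraries 1 and 2 and 12.4 in library 3, against 34.3, 25.9 and 29.5 in WT. The groups were well apart, with a log2 fold change of -1.28 and an SE of 0.32 (limma, adjusted p = 0.0109). The region at 3216 bp (52718801 to 52719300) had 13.9 in TNF-treated libraries 1 and 2 and 9.92 in library 3, against 53.9, 31.2 and 14.7 in WT. The groups did not overlap, but WT libraries spread widely, and the log2 fold change of -1.25 (SE 0.49, limma, adjusted p = 0.0302) became -0.82 without WT library 1 (adjusted p = 0.128). It did not pass without TNF-treated libraries 1 and 2 (adjusted p = 0.062), TNF-treated library 3 (0.145) or WT library 2 (0.0644) either, where each fit without a TNF-treated sample assumes that the lone one left varies like WT. After rescaling the 2 values were -0.42 (adjusted p = 0.272) and -0.39 (adjusted p = 0.429). Around Bax most listed regions were lower too. Of 49 others within 1000 kb after TNF, the other Bax region among them, 44 were lost and 4 gained. At 8 weeks, 21 of 32 were lost and 1 gained. Over all listed regions, 64.1% were lost and 29.8% gained after TNF, and 36.6% and 17.4% at 8 weeks. At 8 weeks losses also prevailed within 1000 kb of Trp53 (21 lost, 1 gained of 33) and E2f3 (5 lost, 0 gained of 7). The 7 include the other E2f3 region. Around Cdk1, 20 of 27 were lost and 5 gained after TNF, but 2 of 11 were lost and 8 gained at 11 weeks. Over all regions listed at 11 weeks, 28.2% were lost and 49.7% gained. The Cdk1 neighbourhood had 13 lost and 8 gained of 28 at 3 weeks, where 44.7% of all regions were lost and 40.3% gained. At 8 weeks it had 6 lost and 3 gained of 18. The part of such neighbourhoods in the member results was not tested.

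Diablo encodes a mitochondrial protein that frees caspases from their inhibitors. Its region at 3 weeks (chromosome 5, 123975201 to 123975700) was the only member region outside its gene, 1278 bp upstream of the start and on the side of Vps33a, the next gene in RefSeq. It had 19.4, 17.9 and 23.7 normalized reads in Tg197, against 1.88, 7.24 and 9.09 in WT. All Tg197 libraries were above all WT libraries, and capture rose by 1.77 on the log2 scale with an SE of 0.42 (limma, adjusted p = 0.00247). The values are low: its mean over the libraries exceeded that of only 0.709% of the regions listed at 3 weeks. Of 26 other regions listed within 1000 kb, 17 were lost and 3 gained, so the gain stood among regions that were mostly lower in Tg197. Over all regions listed at 3 weeks, 44.7% were lost and 40.3% gained.

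Casp12 encodes a caspase of the endoplasmic reticulum that takes part in inflammatory and stress responses in mice. Capture inside it fell in Tg197 at 3 and at 11 weeks, in separate libraries, at regions that share 500 bp. At 3 weeks the region (chromosome 9, 5364551 to 5365750, 19675 bp from the start) had 127, 108 and 16.8 normalized reads in Tg197, against 256, 206 and 229 in WT. At 11 weeks (5364651 to 5365150) it had 40.7, 58.4 and 13.8 in Tg197, against 103, 80.0 and 114 in WT. The groups did not overlap at either age, and library 3 was the lowest of the Tg197 libraries at both. The log2 fold change was -1.87 with an SE of 0.46 at 3 weeks (limma, adjusted p = 0.00266) and -1.58 with an SE of 0.45 at 11 weeks (limma, adjusted p = 0.0219). Without Tg197 library 3 it was -0.96 at 3 weeks (adjusted p = 1.77e-05) and -0.99 at 11 weeks (adjusted p = 0.0531).

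Casp12 lies among many listed regions. Within 1000 kb on either side, 31 other regions were listed at 3 weeks, of which 23 were lost and 7 gained, and 28 at 11 weeks, of which 17 were lost and 9 gained. The first 25 Mb of chromosome 9 as a whole had 232 listed regions at 3 weeks, 154 of them lost, and 124 at 11 weeks, 73 of them lost. At 8 weeks it had 44, 11 of them lost, and after TNF 104, 51 of them lost. Outside this stretch, 5708 of 12893 listed regions were lost at 3 weeks and 1988 of 7185 at 11 weeks. There 4372 of 11931 were lost at 8 weeks and 10776 of 16794 after TNF. The low value of Tg197 library 3 extended beyond Casp12. At the 23 lost neighbours at 3 weeks its log2 ratio to the mean of WT had a median of -1.80, against -0.72 and -0.85 in Tg197 libraries 1 and 2, and it was the lowest of the 3 at 20 of them. At lost regions in the rest of that table it was the lowest at 41.2%. At 11 weeks its median over the 17 lost neighbours was -1.42, against -1.09 and -0.70 in libraries 1 and 2, and it was the lowest at 13, compared with 47.7% of lost regions elsewhere. The part of this stretch and of library 3 in the Casp12 result was not tested beyond the values without that library.

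**Figure D4:**
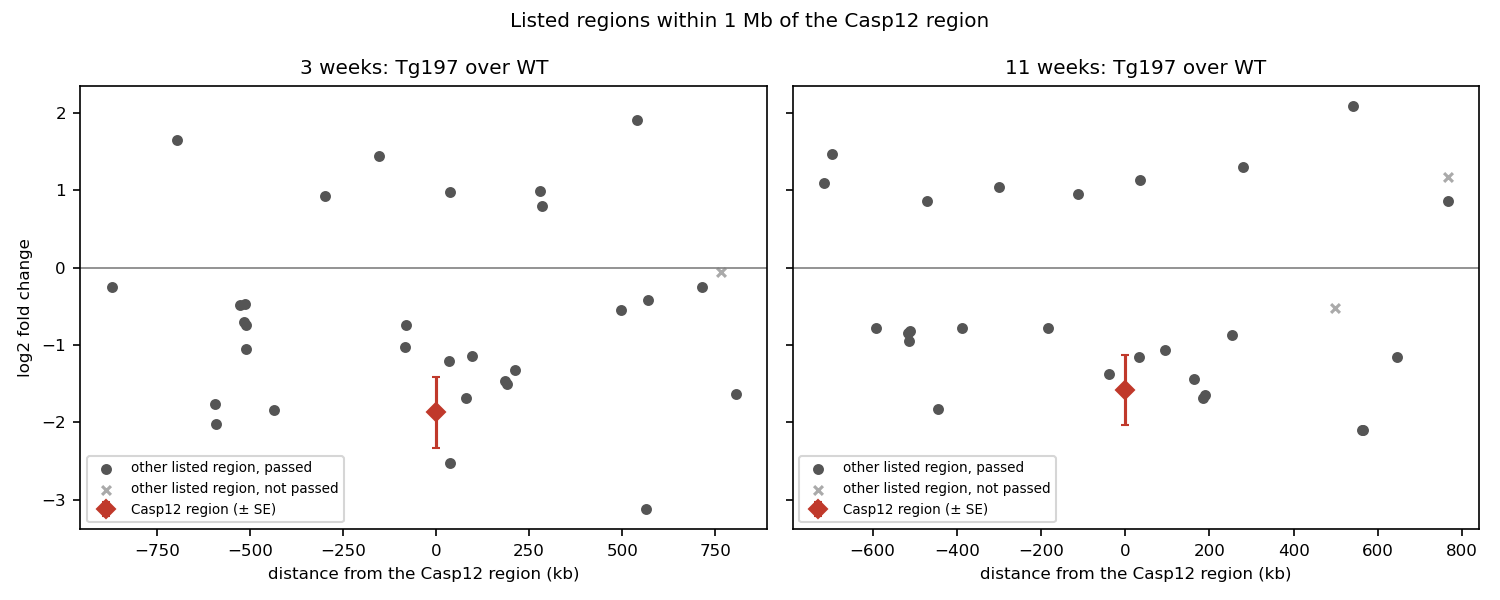
Log2 fold change of capture (y axis, Tg197 over WT, limma) at the other regions listed within 1000 kb of the Casp12 region (x axis, distance between centres in kb) at 3 and 11 weeks, with grey points for regions that passed, crosses for those that did not and a red diamond (± SE) for Casp12. The Casp12 region, at -1.87 and -1.58, lies among 31 and 28 neighbours, of which 23 and 17 were lost. Over all listed regions, 44.7% were lost at 3 weeks and 28.2% at 11 weeks.

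Tnfaip8 encodes a protein that TNF induces and that inhibits apoptosis. Both of its regions were listed at 3 weeks on chromosome 18, inside the gene. The one at 26527 bp from the start (50239451 to 50239950) had 19.4, 22.6 and 29.7 normalized reads in Tg197, against 5.63, 11.8 and 12.5 in WT. All Tg197 libraries were above all WT libraries, and the log2 fold change was 1.23 with an SE of 0.34 (limma, adjusted p = 0.00365). The one at 37002 bp, close to the gene's end (50249701 to 50250650), had 448, 431 and 437 in Tg197, against 593, 558 and 562 in WT. It held the most reads of the member regions at 3 weeks, its groups did not overlap, and the log2 fold change was -0.38 with an SE of 0.06 (limma, adjusted p = 0.00146).

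Some of the authors' own p-values were smaller than read counts alone allow. For 5 of the 29 regions the p in the authors' deposited table was more than 10 times smaller than an exact binomial test gave on the recovered reads. That test leaves out any spread between libraries. They were Trp53, Ccnd1 and the end of Cdk6 at 3 weeks, and the end of Cdk6 in both 8-week tables. For Trp53 at 3 weeks the authors' deposited table gave p = 7.43e-11, where the exact binomial test gave 0.0096. Over all regions, 37.2% at 3 weeks, 6.56% at 8 weeks, 0.835% at 11 weeks and 8.15% in the TNF table met this description. Of read numbers up to 20, between 57.0% and 68.4% per library were even, so reads may not be independent molecules, and counting tests cover counting error only.

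A wider list of 169 cell cycle and apoptosis genes, which holds the 10 members, set these results among others of the same pathways. Its counts below include the member regions. Without them it had 21 gained and 21 lost of 51 regions at 3 weeks and 5 gained and 19 lost of 44 at 8 weeks. At 11 weeks it then had 6 gained and 8 lost of 17, and after TNF 5 gained and 56 lost of 66. Of its genes 81 were listed in at least 1 table and 88 in none, and 5 (Aifm2, Cdk1, Cdk14, E2f7 and Mad1l1) in all 4 tables. At 3 weeks it had 61 regions, 25 gained and 27 lost, with a median log2 fold change of -0.09 against -0.12 over all regions. Over the whole table of that age, 44.7% of regions were lost and 40.3% gained. Its cyclin-dependent kinase genes had 7 gained and 5 lost of 12 regions, its E2F and retinoblastoma family genes 2 gained and 4 lost of 7, and its caspase and apoptosome genes 1 gained and 4 lost of 6. Its checkpoint and mitosis genes had 6 gained and 3 lost of 10, and its death receptor signalling genes 4 gained and 4 lost of 8. The 3 gained regions with the smallest p were at Ccnh, which encodes cyclin H (31.1 ± 1.37 normalized reads in Tg197 and 12.1 ± 2.57 in WT, log2 fold change 1.31), and at the DNA damage kinase genes Atm (69.6 ± 5.56 in Tg197 and 38.2 ± 6.91 in WT, 0.86) and Atr (29.0 ± 7.13 in Tg197 and 10.2 ± 1.02 in WT, 1.39), each ± SD with n = 3. Besides Tnfaip8, the lost regions with the smallest p were at Rb1, the retinoblastoma gene (253 ± 19.9 in Tg197 and 364 ± 45.1 in WT, -0.52), and Pkmyt1, an inhibitory kinase of Cdk1 (211 ± 9.44 in Tg197 and 272 ± 7.92 in WT, -0.36). All passed limma with adjusted p between 0.00146 and 0.00184.

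At 8 weeks the list had 50 regions, 5 gained and 24 lost, with a median log2 fold change of -1.06 against -0.22 over all regions. The latter include 981 X regions, 927 of them higher in Tg197. After rescaling 11 were gained and 18 lost, with medians of -0.84 for the list and 0.0 over all regions, and over all regions the gained share of the passing ones was 32.3% as deposited and 59.3% after rescaling. Its E2F and retinoblastoma family genes had 0 gained and 5 lost of 6 regions, and its cyclin genes 1 gained and 4 lost of 6. Its cyclin-dependent kinase genes had 2 gained and 4 lost of 12, and its checkpoint and mitosis genes 2 gained and 1 lost of 5. Over the whole table of that age, 36.6% of regions were lost and 17.4% gained. The gained regions with the smallest p were at the spindle checkpoint gene Mad2l1 (97.4 ± 42.4 normalized reads in Tg197 and 30.5 ± 10.9 in WT, log2 fold change 1.61), the cyclin gene Ccnb3 on chromosome X (37.1 ± 11.8 in Tg197 and 14.7 ± 1.96 in WT, 1.23) and the kinase gene Cdk17 (77.4 ± 45.7 in Tg197 and 21.9 ± 14.0 in WT, 1.80). The lost ones were at Naip1, an inhibitor of apoptosis gene (4.23 ± 1.62 in Tg197 and 18.3 ± 1.49 in WT, -1.93), the cyclin gene Ccna1 (30.4 ± 4.88 in Tg197 and 72.8 ± 16.9 in WT, -1.22) and Cdc25c, a phosphatase that activates Cdk1 (13.0 ± 2.32 in Tg197 and 34.1 ± 1.23 in WT, -1.34). Each group had n = 3 (SD), and the limma adjusted p was 0.0428 for each of the 6. As a whole, the listed X regions averaged higher in Tg197 libraries 1 and 3 than in any WT library, and the part of this in the Ccnb3 gain was not tested.

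At 11 weeks 22 regions of the list were present, 7 gained and 12 lost, with a median log2 fold change of -0.57 against 0.76 over all regions. After rescaling 5 were gained and 13 lost, with medians of -0.88 for the list and 0.45 over all regions, and the gained share of all passing regions was 63.8% as deposited and 45.2% after rescaling. Its caspase and apoptosome genes had 1 gained and 3 lost of 4 regions, its checkpoint and mitosis genes 1 gained and 3 lost of 5, and its cyclin and BCL2 family genes had 0 regions. Its death receptor signalling genes had 2 gained of 2. Over the whole table of that age, 28.2% of regions were lost and 49.7% gained. Besides members, the regions with the smallest p were gained at the replication helicase gene Mcm6 (20.9 ± 9.94 normalized reads in Tg197 and 5.14 ± 2.00 in WT, log2 fold change 1.77) and the death-associated kinase gene Dapk1 (34.5 ± 11.0 in Tg197 and 13.8 ± 5.00 in WT, 1.28) and lost at the p53 target Sesn2 (12.3 ± 1.76 in Tg197 and 28.5 ± 7.52 in WT, -1.12). Each group had n = 3 (SD), with limma adjusted p = 0.0219.

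In the TNF table the list had 74 regions, 7 gained and 61 lost, with a median log2 fold change of -1.23 against -1.08 over all regions. After rescaling 12 were gained and 4 lost. As deposited, all 8 regions of its checkpoint and mitosis genes and all 6 of its inhibitors of apoptosis and their antagonists were lost, as were 8 of the 10 of its BCL2 family, where 64.1% of the table was lost. Its death receptor signalling genes had 3 gained and 8 lost of 11, and its cyclin-dependent kinase genes 2 gained and 7 lost of 12. The gained regions with the smallest p were at Dapk1 (225 ± 4.96 normalized reads in TNF-treated WT and 154 ± 13.7 in WT, log2 fold change 0.55), the p53 target Sesn1 (162 ± 25.8 in TNF-treated WT and 105 ± 12.1 in WT, 0.62) and Dapk2 (124 ± 6.71 in TNF-treated WT and 86.0 ± 5.29 in WT, 0.53). Besides Cdk1 and Cdk6, the lost region with the smallest p was at Birc6, a giant inhibitor of apoptosis gene (0.995 ± 1.41 in TNF-treated WT and 19.9 ± 2.50 in WT, -3.59). These have n = 2 against n = 3 (SD) and limma adjusted p = 0.0109.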

How the data were processed

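Methylated DNA was captured from synovial fibroblast DNA sonicated to 250 bp on average and sequenced as paired reads of 100 bp, per the labels' protocols. BWA, TopHat, TopHat2, Cufflinks, Cuffdiff and build mm9 are named with no role in the submitters' processing notes, and the sources used here do not name the program that selected the regions. The deposited signal is, per the file headers, the mean of normalized reads in a group, beside the packed values of its 3 libraries, the authors' log2 fold change and the authors' p-value. Tg197 or TNF-treated WT values were taken from the columns headed treatment, and 0 columns were left out. For 100.0% of low values in each library, whole reads were recovered within 0.1.

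From these values limma 3.58.1 (R 4.3.3, mean trend, two-sided, Benjamini-Hochberg over each table, threshold 0.05) was fitted to log2(value + 1) of every listed region, within a table, with no filter, and checked on simulated data. A fold on this scale understates changes at low values. Python 3.11.15 with scipy 1.17.1 gave the exact binomial tests. Alternatives were pseudocounts of 0.1 and 5, a minimum mean of 10 in the group with the higher value, rescaled libraries, limma voom on recovered reads, each library left out, all TNF-treated libraries counted, and adjustment over all windows.

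Members and lists were chosen with earlier results of these data known. Every member region is named, and of the wider list the 3 gained and 3 lost regions per table with the smallest adjusted p.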

Additional observations from a re-analysis of the deposited data

Results flagged for a closer look

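At the end of Cdk6 the change had opposite signs at 2 ages. Every Tg197 library was below the WT mean at 3 weeks, with a log2 fold change of -0.19 (limma, adjusted p = 0.0382), although the groups overlapped there and the call was lost under 6 of 12 alternatives, rescaling among them (-0.14, adjusted p = 0.0958). Every Tg197 library was above the WT mean at 8 weeks, with a log2 fold change of 0.23 (limma, adjusted p = 0.186), at regions that share 350 bp. The tables were normalized separately, and the difference between the ages was not tested.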

How the results depend on the processing

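No paired analysis was possible because the order of values in the deposited columns carries no replicate numbers. Of 348 member values under an alternative, 251 kept their direction and their side of the threshold, 94 kept their direction but no longer passed, 3 passed where they had not, and 0 changed sign. The minimum mean left out none of the 29 member regions, and the adjustment over all windows cannot change a fold, so neither could turn a direction. At the 26 regions whose groups did not overlap, a pseudocount, a left-out library or the recounted TNF-treated pair could not turn it either. The absence of changed signs therefore says little about these settings. Adjusted over all windows implied by the deposited p and q-values (at least 902000, 761000, 749000 and 817000 at 3, 8 and 11 weeks and after TNF), limma left 0 member regions and 0 of the wider list in each table. Of all listed regions it left 24 of 13125 at 3 weeks and 0 in each other table. At an unadjusted p under 0.05 there were 10, 5, 5 and 7 member regions and 52, 33, 19 and 69 of the list, and limma voom, adjusted over listed regions, called 10, 5, 5 and 7 and 52, 26, 17 and 68. With a pseudocount of 0.1, limma called 0 member regions and 0 of the list at 8 weeks (4 and 32 at an unadjusted p under 0.05). Of all regions of that table it called 0 as well. After rescaling, 8 member regions and 48 of the list passed at 3 weeks, 3 member regions at 8 weeks, and 4 member regions and 16 of the list after TNF. The rescaling rests on listed regions only, so it would also remove a true net change among them. With each library left out in turn, the member regions that passed numbered 8 to 10 at 3 weeks, 0 to 4 at 8 weeks, 0 to 5 at 11 weeks and 4 to 8 after TNF, and those of the list 45 to 50, 0 to 35, 0 to 15 and 53 to 71. Without a TNF-treated sample, the lone one left is assumed to vary like WT. Over all listed regions, those that passed with a library left out numbered 10133 to 10848 at 3 weeks, 0 to 8849 at 8 weeks and 0 to 5511 at 11 weeks. Reads were fewest at 11 weeks, where Cdk1 and Trp73 rest on 14 reads or fewer per library.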
